A study of Gallus gallus with 2 samples.

Results

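The collagen, laminin and integrin genes of the chick retina were taken by symbol from the gene table of both libraries. The rule took every symbol that begins as a collagen chain (COL, a number, A, a number), a laminin chain (LAMA, LAMB, LAMC) or an integrin chain (ITGA, ITGB), together with FN1, NID1, NID2, HSPG2 and AGRN. It found 83 of 23967 genes. Of these, 78 are matrix or integrin genes, and 5 (ITGB1BP1, ITGB1BP2, ITGB1BP3, ITGB3BP and COL4A3BP) share only the start of the symbol and are described apart.

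Collagens are triple helices of alpha chains that form fibrils, such as those of type II collagen in the vitreous, or networks, such as that of type IV collagen in basement membranes. Laminins are trimers of an alpha, a beta and a gamma chain that form the other network of the basement membrane, and nidogens and the heparan sulfate proteoglycans perlecan and agrin tie the networks together. Integrins are receptors of 1 alpha and 1 beta chain that hold cells to these proteins. In the embryonic retina the inner basement membrane lies where the endfeet of progenitors and the axons of retinal ganglion cells (RGCs) meet the vitreous.

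The study compared single cells of chick retinas in which OTX2, a homeobox gene needed for photoreceptors, was targeted with Cas9 and guide 2 (OTX2CRISPR) with cells of CTRL retinas. The CTRL retinas received the same p18 plasmid, with Cas9 under the CAG promoter and the guide scaffold but no target sequence, so both groups carry Cas9. Retinas of female embryos were electroporated ex vivo at embryonic day 5, cultured for 48 h and sorted for GFP driven by the OTX2ECR2 enhancer of mouse OTX2, so that the libraries hold cells that carry the active reporter and not the whole retina. Several retinas were pooled into each library, the CTRL retinas being the other eyes of the same embryos. The mutations differ from cell to cell. In the study's amplicon sequencing of OTX2 from the sorted OTX2CRISPR cells, part of the reads were wildtype and part held deletions without a frameshift. The library therefore cannot be taken as made of mutant cells only.

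The OTX2CRISPR counts held 4953 cell barcodes and the CTRL counts 5128, with a median of 2570 and 2789.5 transcripts (unique molecular identifiers, UMIs) per cell, and the barcode sequences in common numbered 38. After the study's cell filters 4928 OTX2CRISPR and 5073 CTRL cells were kept. Each condition is 1 library, so no test was possible and no p-value is given. Levels are UMIs scaled to 1000000 UMIs of a library or class (CPM), and intervals are exact intervals at 95% that cover counting error only. OTX2 itself had 761 CPM in OTX2CRISPR and 1745 CPM in CTRL cells, which checks no mutation, because reads come mainly from the end of the transcript. Each UMI is 1 molecule tagged near its end, so levels are not divided by gene length, and a gene with an incomplete annotated end can be undercounted.

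Cells were clustered without the members and without the class markers, and clusters were named from markers of the study's cell types. Multipotent retinal progenitor cell (RPC)-like cells numbered 318 in OTX2CRISPR and 347 in CTRL, and restricted RPC-like cells, which divide with neuronal fates already limited, 511 and 1295. The 3 cone-like classes (homotypical PC, PR1 and PR2) held 39, 44 and 28 cells in OTX2CRISPR, against 900, 922 and 581 in CTRL. Horizontal cell (HC)-like classes held 517 HC1 and 216 HC2 cells in OTX2CRISPR and 87 HC1 and 445 HC2 cells in CTRL, and RGC-like cells numbered 527 and 152. New-like cells numbered 1800 in OTX2CRISPR and 27 in CTRL. They carry the name under which their marker genes were listed. A cluster led by THRSPB, LOC101748650 and NPY stayed unnamed under a marker threshold set after its values were seen. It held 18.8% of OTX2CRISPR and 6.25% of CTRL cells, beside 10.4% and 25.5% in the restricted class. At resolution 0.4 no progenitor cells were left unnamed, and the restricted class held 1199 OTX2CRISPR and 1503 CTRL cells. The study reported no severe change in its share of restricted RPCs. The smaller restricted class of OTX2CRISPR here is therefore not read as a loss of these cells, and its values cover only part of them. No cluster was named for the study's mixed class of amacrine cells, HCs and RGCs. Under the same threshold all of its markers (PTF1A, DLX1, DLX2 and HEY1) would have had to be raised. Any such cells lie in the classes above or in the unnamed cluster. The sort and these unequal class sizes bear on every comparison of the whole libraries.

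Most members were rare. Of the 83 genes, 40 had at least 50 UMIs over both libraries and 15 had at least 500, while 3 (LAMA3, ITGB2 and COL10A1) had none, which allows up to 0.227 CPM in OTX2CRISPR and 0.203 CPM in CTRL. Among the 78 matrix and integrin genes, AGRN, COL2A1, COL18A1 and COL5A1 together held 59.0% of all UMIs. The 10 fibrillar collagens had 7806 UMIs, while the 6 type IV collagen chains had 493 and the 12 laminin chains 1195, of which LAMC1 held 616. The counts are thus led by fibrillar collagen, agrin and the endostatin-bearing COL18A1, with little from the networks of the basement membrane.

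**Figure D1:**
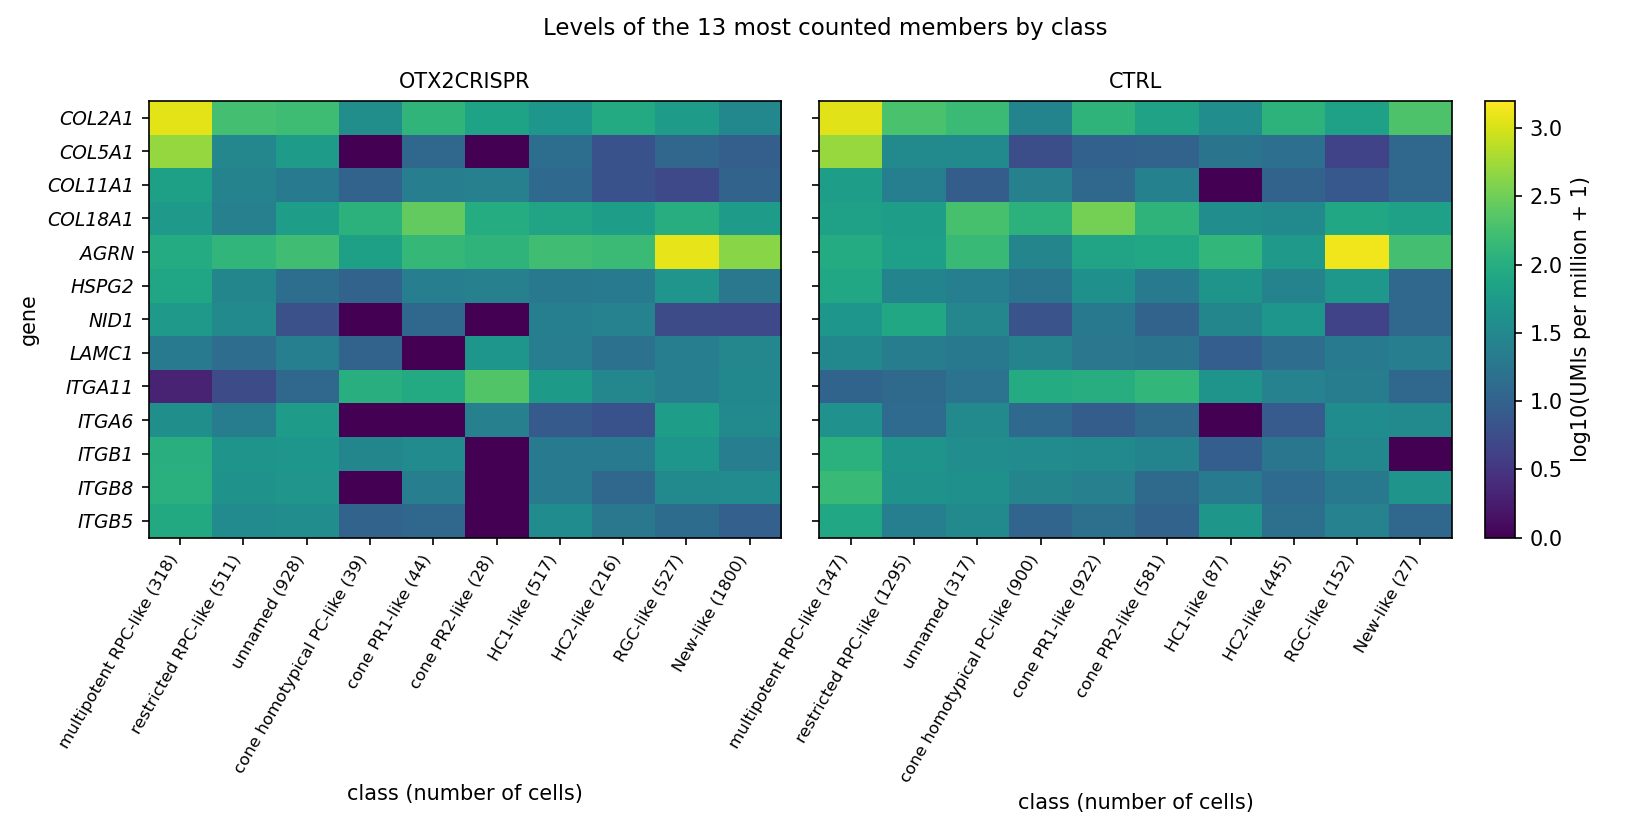
Levels of the 13 matrix and integrin genes with at least 500 UMIs, as log10 of CPM plus 1, in each class of OTX2CRISPR (left) and CTRL (right) cells, with the number of cells in brackets. COL2A1 and COL5A1 are brightest in multipotent RPC-like cells and AGRN in RGC-like cells of both libraries, and squares at 0 in the small cone-like classes of OTX2CRISPR rest on few UMIs.

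Of the 7 fibrillar collagens with at least 50 UMIs, COL2A1, COL5A1 and COL11A1 were highest in the multipotent RPC-like cells. COL2A1, the chain of type II collagen, had 1162 CPM there in OTX2CRISPR and 1147 CPM in CTRL, against 174 and 188 CPM in restricted RPC-like cells. This is a log2 ratio of multipotent over restricted cells of 2.74 (2.53 to 2.95) in OTX2CRISPR and 2.61 (2.48 to 2.74) in CTRL. The other classes were lower than the multipotent class in both libraries, the lowest being New-like cells of OTX2CRISPR with 30.6 CPM and cone homotypical PC-like cells of CTRL with 26.6 CPM. The typical multipotent RPC-like cell held a median of 3 COL2A1 UMIs in either library, and the highest held 14 in OTX2CRISPR and 17 in CTRL.

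After thinning each cell to 1000 UMIs, COL2A1 was seen in 61.2% (55.4 to 66.8) of multipotent RPC-like cells of OTX2CRISPR and in 58.2% (52.7 to 63.5) of CTRL, and without thinning in 84.0% and 87.3%. The same share was 2.56% and 2.90% in cone homotypical PC-like cells, with median depths of 2388 UMIs in OTX2CRISPR and 3087 in CTRL beside 3082 and 3299 in the multipotent class. COL2A1 was thus seen in most cells of this class, and its 10 highest cells held 2.78% of its UMIs. Because the other cells are many, the class held 52.8% of all COL2A1 UMIs in OTX2CRISPR and 45.6% in CTRL.

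COL5A1, a chain of type V collagen that regulates the width of collagen fibrils, was the member most restricted to this class among those with at least 500 UMIs. It had 497 CPM in OTX2CRISPR and 514 CPM in CTRL multipotent RPC-like cells, against 28.9 and 32.97 CPM in restricted RPC-like cells, or a log2 ratio of 4.10 (3.63 to 4.62) in OTX2CRISPR and 3.96 (3.69 to 4.24) in CTRL. The multipotent class held 65.1% of its UMIs in OTX2CRISPR and 71.1% in CTRL. Its level in the unnamed cluster was 56.0 CPM in OTX2CRISPR and 32.3 CPM in CTRL, and all cone-like cells together had 1 COL5A1 UMI in OTX2CRISPR and 45 in CTRL. COL2A1 and COL5A1 are also among the genes the study listed for multipotent RPCs from these libraries, so their place in the class is not independent evidence, although neither was used here to form or name it.

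COL11A1, which codes for a chain that joins type II collagen fibrils, followed at a lower level, with 65.3 CPM in OTX2CRISPR and 59.4 CPM in CTRL multipotent RPC-like cells and 25.9 and 23.4 CPM in restricted ones. COL5A2 had 16.3 CPM in OTX2CRISPR and 11.4 CPM in CTRL multipotent cells beside 12.2 and 16.8 CPM in restricted cells, and its intervals overlap. COL24A1 had 66 UMIs in CTRL, of which 25 were in cone homotypical PC-like and 21 in restricted RPC-like cells, and 21 UMIs in all in OTX2CRISPR. COL3A1 and COL1A2, fibrillar collagens of connective tissue, had 63 and 54 UMIs over both libraries, and COL1A1 had 28.

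Cells that make connective tissue collagens were looked for by their markers. The mesenchyme list had 56 UMIs in OTX2CRISPR and 71 in CTRL over 10 genes, with TWIST1, FOXC1, LUM and PRRX1 at 0 in both and PDGFRA holding 35 and 50 of the UMIs. Over the classes its summed level ran from 0 to 6.05 CPM in OTX2CRISPR and from 0 to 12.1 CPM in CTRL. Of the endothelial list CDH5, TIE1 and CLDN5 were at 0. PECAM1 had 172 UMIs in OTX2CRISPR and 181 in CTRL, EGFL7 108 and 54, and KDR 53 and 58. The summed level of the list was highest in multipotent RPC-like cells, at 55.1 CPM in OTX2CRISPR and 56.8 CPM in CTRL. KDR alone had 41.8 and 41.1 CPM there, and PECAM1 5.10 and 8.74 CPM. The summed endothelial level reached down to 0 in the lowest class of OTX2CRISPR and to 6.71 CPM in that of CTRL. A retinal pigment epithelium list had 273 and 336 UMIs. It was highest in cone PR2-like cells of OTX2CRISPR, at 118.5 CPM, and in RGC-like cells of CTRL, at 60.4 CPM. The PR2-like class of OTX2CRISPR held only 28 cells with 42180 UMIs of all genes, so that value rests on few UMIs. The erythroid list had 7 and 4 UMIs and the macrophage list 25 and 49. The lens list, whose crystallins neurons can also express, had 3558 and 2223 UMIs. Of these, 3146 and 1892 were of 1 gene, CRYBA4, while CRYAA was at 0 and CRYBB1 had 15 and 7. The list was highest in HC2-like cells, at 619 and 476 CPM, and its part in HC2-like values was not tested.

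Across all members, the multipotent RPC-like cells stood above the restricted RPC-like cells for many genes in both libraries. Of the 78 matrix and integrin genes, 20 had at least 20 UMIs over both classes in OTX2CRISPR and 27 in CTRL. Of these, 14 were at least 2-fold higher in multipotent RPC-like cells in OTX2CRISPR, where 10.1% of 8217 genes were, and 14 in CTRL, where 12.1% of 9752 genes were. At least 2-fold lower were none in OTX2CRISPR, where 10.8% of genes were, and 1 in CTRL, where 9.13% were. The median log2 ratio over the members was 1.33 in OTX2CRISPR and 1.32 in CTRL, beside -0.02 and 0.06 over all genes. Past 2-fold in both libraries were COL2A1, COL5A1, COL11A1, COL23A1, COL25A1, HSPG2, LAMA5, LAMB2, ITGA2, ITGB1, ITGB5 and ITGB8. The share of all genes past 2-fold in both was not taken, so how usual such an overlap is cannot be given. COL4A5 and COL18A1 passed it in OTX2CRISPR and not in CTRL, and ITGA6 and COL9A2 in CTRL and not in OTX2CRISPR, and those differences were not tested.

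**Figure D2:**
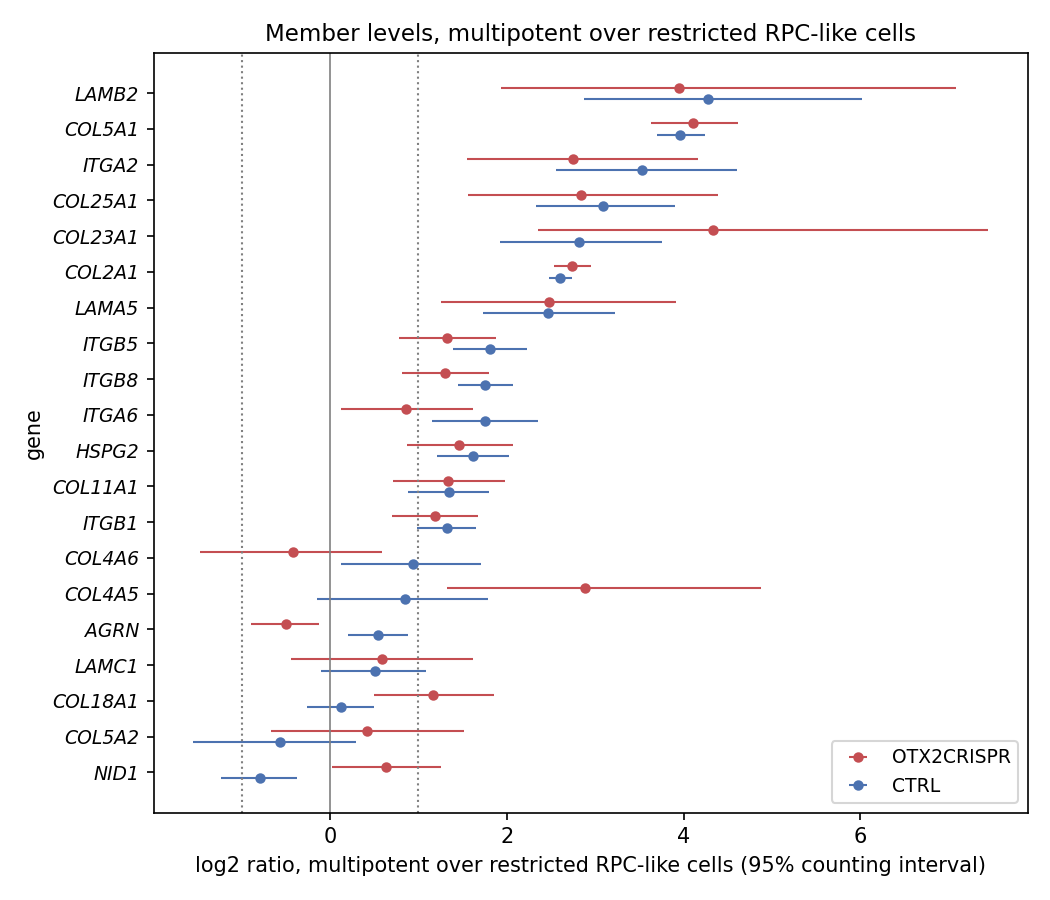
Log2 ratio of the level in multipotent over restricted RPC-like cells for the 20 members with at least 20 UMIs in both comparisons, OTX2CRISPR above CTRL for each gene, with exact counting intervals and dotted lines at 2-fold. COL5A1 (4.10 in OTX2CRISPR and 3.96 in CTRL) and COL2A1 (2.74 and 2.61) have the narrowest intervals far from 0. NID1 and AGRN lie on opposite sides of 0 in the 2 libraries, for AGRN only with cell cycle scores regressed.

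Among the integrin beta chains, all 3 with at least 50 UMIs were highest in multipotent RPC-like cells. ITGB1, the partner of most matrix-binding alpha chains, had 102 CPM there in OTX2CRISPR and 109 CPM in CTRL, against 44.9 and 43.7 CPM in restricted RPC-like cells. ITGB8, whose heterodimer with the alpha V chain activates latent TGF-beta, had 105 and 142 CPM against 42.6 and 42.1 CPM. ITGB5, the beta chain of a vitronectin receptor, had 85.7 and 81.2 CPM against 34.2 and 23.2 CPM. The alpha V chain, ITGAV, had only 18 UMIs in OTX2CRISPR and 23 in CTRL. HC1-like cells had 34.6 CPM of ITGB5 in OTX2CRISPR and 48.5 CPM, on 12 UMIs, in CTRL, where they came next to the multipotent class with an overlapping interval.

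In the restricted class, of 12 members counted in OTX2CRISPR 3 (ITGB1, ITGB8 and NID1) were at least 2-fold higher in S or G2/M than in G1 cells and 1 (AGRN) lower. Of 22 in CTRL 8 (ITGB1, COL4A5, ITGA6, LAMC1, COL11A1, COL24A1, COL26A1 and ITGA3) were higher and 4 (AGRN, COL2A1, COL25A1 and HSPG2) lower. Restricted RPC-like cells in S or G2/M phase had 50.7 CPM of ITGB1 in OTX2CRISPR and 47.0 CPM in CTRL, against 24.2 and 18.5 CPM in G1 cells. For ITGB8 the levels were 49.7 and 44.6 CPM in S or G2/M, against 17.3 and 22.6 CPM in G1. The G1 values rest on 5 to 11 UMIs each, and the interval of the ITGB1 ratio in OTX2CRISPR, -0.08 to 2.45, takes in 0. In the restricted class 16.3% of genes in OTX2CRISPR and 19.8% in CTRL were at least 2-fold higher in S or G2/M cells, and 13.6% and 9.90% lower. In multipotent RPC-like cells neither gene differed past 2-fold between phases, and of 17 members counted there in OTX2CRISPR 1, NID1, was 2-fold higher in S or G2/M, where 14.2% of genes were, and none lower, where 2.77% were. Of 18 in CTRL none was higher, where 12.5% of genes were, and 1, ITGA2, was lower, where 3.5% were.

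The integrin alpha chains were spread over different cell types. ITGA2, a collagen receptor chain, was highest in the multipotent class, with 35.7 CPM in OTX2CRISPR and 32.3 CPM in CTRL. Restricted RPC-like cells had 5.32 and 2.81 CPM of ITGA2. HC2-like cells came next, at 12.7 CPM in OTX2CRISPR with an overlapping interval and at 7.19 CPM in CTRL. The other classes together held 59.3% of ITGA2 UMIs in OTX2CRISPR and 50% in CTRL. ITGA6, a laminin receptor chain, had 59.8 CPM in RGC-like and 57.1 CPM in unnamed cells of OTX2CRISPR, against 35.2 and 33.4 CPM in CTRL, and 38.8 and 41.1 CPM in multipotent RPC-like cells. Its order among the highest classes cannot be given, since their intervals overlap in both libraries. ITGA8, a receptor chain for nephronectin, was highest in HC1-like cells, with 29.3 CPM in OTX2CRISPR and 52.5 CPM in CTRL, although the CTRL value rests on 13 UMIs, and all cone-like and multipotent cells of both libraries had 1 ITGA8 UMI together. ITGA3, a laminin receptor chain, had 94 and 114 UMIs over all classes without a clear peak.

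ITGA11 and ITGA4 were the integrins of cones. ITGA11, a collagen receptor chain, had 103, 89.5 and 213 CPM in cone homotypical PC-, PR1- and PR2-like cells of OTX2CRISPR, on 28 UMIs together, against 93.0, 97.6 and 129 CPM in CTRL, on 641 UMIs. In restricted RPC-like cells it had 4.56 CPM in OTX2CRISPR and 11.9 CPM in CTRL, and in HC1-like cells 55.0 and 44.5 CPM. ITGA4, a chain of the receptor for fibronectin and VCAM1, had 119 of its 151 CTRL UMIs in the cone-like classes, with 14.3, 19.6 and 27.8 CPM. Cone-like cells of CTRL set against restricted RPC-like cells had 7 of 31 members at least 2-fold higher, where 15.2% of 10937 genes were, and 11 lower, where 10.7% were. The higher ones were ITGA11, ITGA4, COL18A1, COL9A2, COL6A2, COL4A1 and COL4A2, and the lower ones included COL2A1, COL5A1, NID1, ITGB5 and LAMA5. COL4A1 and its neighbour COL4A2, which pair in type IV collagen, had 22 and 13 UMIs in PR2-like cells of CTRL, against 2 and 0 in restricted RPC-like cells. RBP4, a retinol carrier and cone gene of the marker lists, had 7755 CPM in the cone-like classes of OTX2CRISPR and 9436 CPM in those of CTRL, against 42.7 and 300 CPM outside them. It was at 86.7 and 228 CPM in restricted RPC-like cells and at 27.6 and 700 CPM in multipotent ones, and whether these UMIs come from free RNA, doublets or the cells themselves, and what part that has in low values of cone members there, was not tested.

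COL18A1, which carries endostatin at its end, was the collagen of PR1-like cones. It had 269 CPM (172 to 400) in cone PR1-like cells of OTX2CRISPR and 337 CPM (313 to 364) in CTRL. The next class was cone homotypical PC-like in OTX2CRISPR, with 113 CPM and an overlapping interval, and the unnamed cluster in CTRL, with 186 CPM (159 to 216), followed there by cone PR2-like cells with 121 CPM (103 to 141). In CTRL 66.0% of all COL18A1 UMIs were in cone-like cells, and in OTX2CRISPR 4.82%. RGC-like cells had 98.8 CPM in OTX2CRISPR and 78.8 CPM in CTRL. COL9A2, a chain that decorates type II collagen fibrils, was also highest in PR1-like cones, with 33.6 CPM on 3 UMIs in OTX2CRISPR and 22.6 CPM on 46 UMIs in CTRL.

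AGRN, the proteoglycan agrin that organizes the neuromuscular synapse and is found in retinal basement membranes, marked the RGC-like cells. It had 1220.1 CPM (1169 to 1273) there in OTX2CRISPR and 1344 CPM (1252 to 1440.0) in CTRL. New-like cells came second, with 430.2 CPM in OTX2CRISPR and 177 CPM, on 16 UMIs, in CTRL. The rest ran from 65.8 to 166 CPM in OTX2CRISPR and from 27.6 to 148 CPM in CTRL, so that the RGC-like interval lay above that of every other class in both libraries. After thinning, AGRN was seen in 63.3% of RGC-like cells of OTX2CRISPR and 66.4% of CTRL, in 31.8% of New-like cells of OTX2CRISPR, and in 10.3% and 2.23% of cone homotypical PC-like cells. The study listed AGRN among RGC genes from these libraries, so the peak is a description and not independent evidence. COL9A3, a partner chain of COL9A2, shared the RGC-like cells at a low level, with 12.6 CPM in OTX2CRISPR and 15.1 CPM in CTRL.

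RGC-like cells were also set against restricted RPC-like cells alone. Of 20 members counted in OTX2CRISPR, 8 were at least 2-fold higher in RGC-like cells, where 19.8% of 8967 genes were, and 5 lower, where 13.3% were. Of 23 in CTRL, 4 were higher, where 21.6% of 9587 genes were, and 10 lower, where 19.6% were. The 4 higher members of CTRL do not exceed the share over all genes. AGRN, ITGA6 and COL25A1 were higher in both libraries, and COL2A1, COL5A1, COL11A1 and NID1 were lower in both. COL25A1 was not particular to RGC-like cells, with 9.20 CPM in OTX2CRISPR and 10.1 CPM in CTRL. In multipotent RPC-like cells it had 32.7 and 41.9 CPM. COL5A1 had 10.3 CPM in RGC-like against 28.9 CPM in restricted RPC-like cells of OTX2CRISPR, and 3.36 against 32.97 CPM in CTRL.

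AGRN was also higher in progenitors in G1. Restricted RPC-like cells in S or G2/M had 67.3 CPM in OTX2CRISPR and 45.1 CPM in CTRL, against 346 and 195 CPM in G1 cells. Within each phase the level of OTX2CRISPR was less than 2-fold above that of CTRL. The log2 ratio of S or G2/M over G1 cells was -2.36 (-2.83 to -1.91) in OTX2CRISPR and -2.11 (-2.48 to -1.74) in CTRL, where 13.6% and 9.90% of genes were at least 2-fold lower in S or G2/M. In multipotent RPC-like cells the same ratio was -0.85 in OTX2CRISPR and -0.63 in CTRL.

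NID1, the nidogen that joins laminin to type IV collagen, was highest in restricted RPC-like cells of CTRL. In multipotent RPC-like cells it had 52.0 CPM in OTX2CRISPR and 47.2 CPM in CTRL. In restricted RPC-like cells it had 33.5 CPM (24.3 to 44.9) in OTX2CRISPR and 81.6 CPM (73.3 to 90.6) in CTRL. The order of the progenitor classes was therefore turned round. Multipotent over restricted cells gave a log2 ratio of 0.64 (0.03 to 1.25) in OTX2CRISPR and -0.79 (-1.23 to -0.37) in CTRL. Outside the progenitors NID1 was found in HC2-like cells, with 25.4 and 47.2 CPM, and in HC1-like cells, with 23.1 and 28.3 CPM, and it was low in RGC-like cells, with 4.60 and 3.36 CPM. HSPG2, or perlecan, had another pattern, with 77.6 and 82.1 CPM in multipotent RPC-like cells, and RGC-like cells next at 46.0 and 50.3 CPM.

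**Figure D3:**
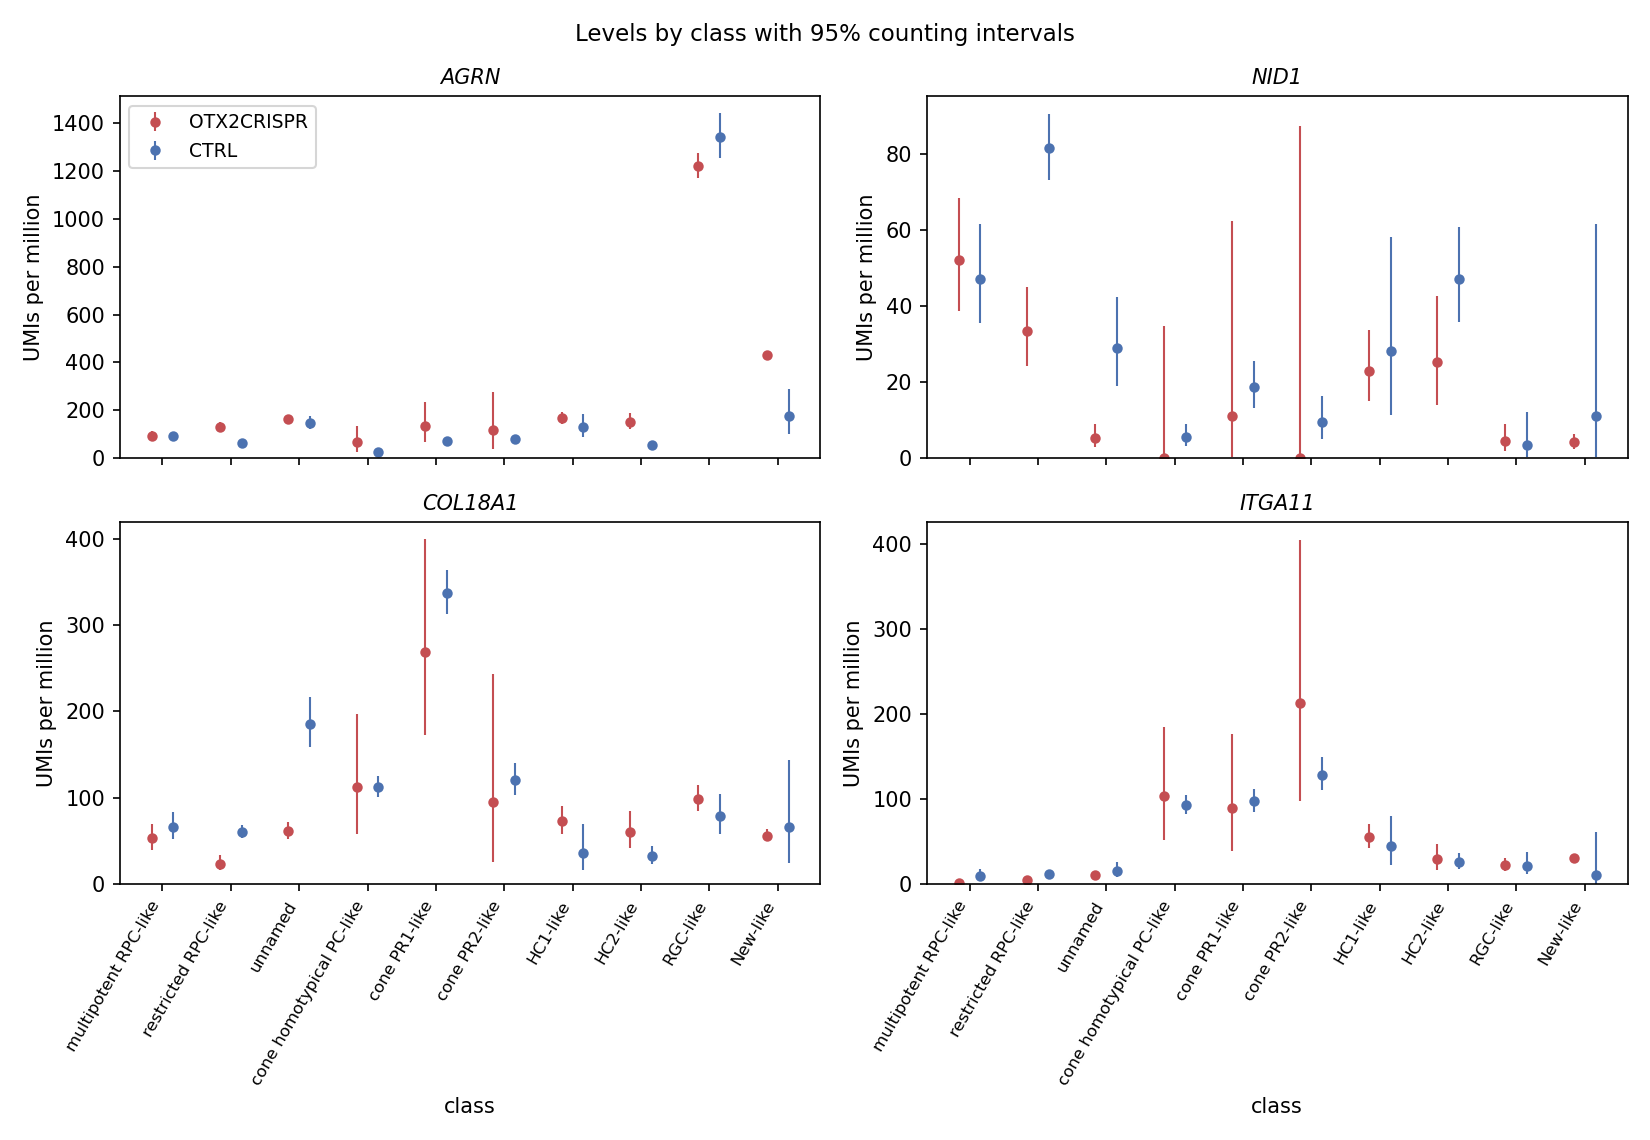
Levels of AGRN, NID1, COL18A1 and ITGA11 in CPM by class, OTX2CRISPR left of CTRL, with exact counting intervals. AGRN peaks in RGC-like cells (1220.1 CPM in OTX2CRISPR and 1344 CPM in CTRL), COL18A1 in cone PR1-like cells (269 and 337 CPM) and ITGA11 in cone-like cells, while NID1 is at 33.5 CPM in restricted RPC-like cells of OTX2CRISPR and 81.6 CPM in CTRL.

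Laminin chains were few, and LAMA5 and LAMB2 were highest in multipotent RPC-like cells. LAMA5 had 29.6 CPM there in OTX2CRISPR and 34.9 CPM in CTRL, against 5.32 and 6.31 CPM in restricted RPC-like cells. LAMB2 had 23.5 and 22.7 CPM against 1.52 and 1.17 CPM. The interval of the multipotent class overlaps that of the next class for LAMB2 in both libraries and for LAMA5 in CTRL. LAMC1, the gamma chain of most laminins, was found in nearly all classes, at 19.4 and 30.6 CPM in multipotent and 12.9 and 21.5 CPM in restricted RPC-like cells. LAMB1, the beta chain of the classical trimer, had 5 UMIs over both libraries and LAMA1 55.

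Of the type IV collagen chains, COL4A6 had the most UMIs, 169 in OTX2CRISPR and 114 in CTRL, and was found in progenitors, HC2-like and RGC-like cells and seldom in cones, with 0 and 6 UMIs in all cone-like cells. COL4A5 had 22.4 CPM in OTX2CRISPR and 13.1 CPM in CTRL multipotent RPC-like cells against 3.04 and 7.25 CPM in restricted ones. COL4A1, the commonest chain of basement membranes, had 18 and 44 UMIs, of which 37.1% lay in 10 cells, and COL4A2 had 13 and 25. By name, COL4A1 and COL4A2, COL4A5 and COL4A6, COL5A2 and COL3A1, and COL6A1 and COL6A2 are neighbours in the GRCg7b assembly, among 8 such pairs of members.

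The neighbours COL6A1 and COL6A2 were both found in HC2-like cells of CTRL and differed in HC1-like cells of OTX2CRISPR. COL6A2, a chain of the beaded filaments of type VI collagen, had 57.7 CPM in HC1-like cells of OTX2CRISPR and 20.2 CPM in CTRL, and 30.9 and 29.6 CPM in HC2-like cells. COL6A1, its neighbour, had 5.32 and 4.04 CPM in HC1-like cells, and 22 of its 49 CTRL UMIs were in HC2-like cells. The CTRL value of COL6A1 in HC1-like cells has an interval of 0.102 to 22.5 CPM, which takes in that of COL6A2. The transmembrane collagens COL25A1 and COL23A1 were highest in the multipotent class. COL25A1 had 32.7 CPM there in OTX2CRISPR and 41.9 CPM in CTRL, and COL23A1 had 30.6 and 28.0 CPM.

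Within the multipotent RPC-like cells the members, like most genes, differed little between OTX2CRISPR and CTRL. Of the 22 matrix and integrin genes with at least 20 UMIs there, none was 2-fold higher or lower, where 1.44% and 2.53% of 8049 genes were. With shares this low, a count of none among 22 does not set the members apart from other genes. The log2 ratio of OTX2CRISPR over CTRL was 0.02 (-0.10 to 0.13) for COL2A1, -0.05 (-0.22 to 0.13) for COL5A1, -0.10 (-0.49 to 0.29) for ITGB1 and -0.08 (-0.54 to 0.37) for HSPG2. ITGB8 was the only one of them whose interval lay off 0, at -0.44 (-0.81 to -0.07). The median over the 22 genes was -0.07, beside -0.01 over all genes. With deeper counts smaller differences could appear, since for genes such as LAMB2 the interval runs from -0.83 to 0.91.

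Within the restricted RPC-like cells more members differed. Of 23 genes, 1 was at least 2-fold higher in OTX2CRISPR, where 4.86% of 9669 genes were, and 6 were at least 2-fold lower, where 4.09% were. The lower genes were NID1, COL18A1, ITGA11, ITGA4, COL24A1 and COL4A5, and the higher one was AGRN. NID1 gave a log2 ratio of -1.29 (-1.77 to -0.83) and COL18A1, with 23.6 CPM in OTX2CRISPR and 60.8 CPM in CTRL, one of -1.37 (-1.95 to -0.83). ITGA11 gave -1.39 on 6 UMIs in OTX2CRISPR and 51 in CTRL, while the intervals of ITGA4, COL24A1 and COL4A5 take in 0. COL18A1 and ITGA11 were highest in cone-like classes in both libraries, and COL18A1 was also high in the unnamed cluster of CTRL. RBP4 was at 86.7 and 228 CPM in restricted RPC-like cells of OTX2CRISPR and CTRL. What part such RNA has in the COL18A1 and ITGA11 ratios was not tested.

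AGRN had 129 CPM in restricted RPC-like cells of OTX2CRISPR and 62.2 CPM in CTRL, a log2 ratio of 1.05 (0.76 to 1.33). Taken apart by phase, S or G2/M cells and G1 cells each had an AGRN level less than 2-fold higher in OTX2CRISPR. The ratio of the whole class was not weighted for phase, and the part of phase in it was not tested. The share of cells with an AGRN UMI after thinning was 10.7% (8.11 to 13.7) in OTX2CRISPR and 6.45% (5.17 to 7.93) in CTRL. For NID1 these shares were 2.82% (1.55 to 4.69) and 9.01% (7.50 to 10.7), and for COL18A1 1.61% (0.699 to 3.15) and 5.67% (4.47 to 7.08). Without thinning NID1 was seen in 8.02% and 22.01% of restricted RPC-like cells, at median depths of 2506 and 3195 UMIs. The direction was the same in levels and in shares for all 3 genes.

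The restricted class depends on where the unnamed cluster is put. In that cluster NID1 had 5.29 CPM in OTX2CRISPR and 28.9 CPM in CTRL, and COL18A1 had 61.3 and 186 CPM, so both were lower in OTX2CRISPR there too, while AGRN had 165 and 148 CPM. Of 19 members counted in the cluster, NID1, COL18A1 and COL6A2 were at least 2-fold lower in OTX2CRISPR, where 3.45% of genes were, and COL4A6, COL25A1, COL3A1 and COL11A1 higher, where 12.2% were. With the unnamed cluster joined to the restricted class, the log2 ratio of OTX2CRISPR over CTRL became -2.31 for NID1, -0.76 for COL18A1 and 0.99 for AGRN. AGRN was thus close to the 2-fold line under either grouping and NID1 beyond it. NID1 was also lower in OTX2CRISPR in restricted RPC-like cells of either phase, with 39.0 CPM against 77.3 CPM in CTRL in S or G2/M cells and 13.8 against 115 CPM in G1 cells, the G1 value of OTX2CRISPR resting on 4 UMIs.

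Within the neuron-like classes the members past 2-fold between the libraries were mostly genes of few UMIs. In HC1-like cells 3 of 12 counted members (COL6A2, ITGB1 and LAMC1) were at least 2-fold higher in OTX2CRISPR, where 7.52% of genes were, and 1 (HSPG2) lower, where 2.53% were. In HC2-like cells 1 of 15 (AGRN) was higher, where 4.36% of genes were, and 2 (COL5A1 and COL6A1) lower, where 3.26% were. In RGC-like cells 1 of 19 (COL5A1) was higher, where 5.71% were, and 1 (COL4A6) lower, where 2.35% were. Of 15 members in cone homotypical PC-like cells 2 were higher, where 8.69% of genes were, and 5 lower, where 20.3% were, of 15 in cone PR1-like cells 2 were higher, where 8.56% were, and 1 lower, where 18.3% were, and of 10 in cone PR2-like cells 1 was higher, where 10.8% were, and 3 lower, where 25.8% were. Of 22 in New-like cells, a class with 27 CTRL cells, 6 were higher, where 28.2% of genes were, and 5 lower, where 15.6% were. All of these but AGRN in HC2-like cells rest on under 20 UMIs in at least 1 library. AGRN had 153 CPM in HC2-like cells of OTX2CRISPR and 53.5 CPM in CTRL, a log2 ratio of 1.51 (1.03 to 1.995), while in RGC-like cells the ratio was -0.14 (-0.26 to -0.02). ITGA6 in RGC-like cells had 59.8 CPM in OTX2CRISPR and 35.2 CPM in CTRL, on 104 and 21 UMIs. In HC2-like cells NID1 had 14 UMIs in OTX2CRISPR and 59 in CTRL, a ratio of -0.89 (-1.85 to -0.03). The cone-like classes of OTX2CRISPR held too few UMIs for a comparison of most members, and COL18A1 in PR1-like cells, at 269 and 337 CPM, was not distinguishable between the libraries.

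Over the whole libraries, 36 of the 78 matrix and integrin genes had at least 50 UMIs. Of these, 5 were at least 2-fold higher in OTX2CRISPR (AGRN, ITGA6, ITGA8, COL9A3 and LAMB3), where 7.27% of 11394 genes were, and 5 were at least 2-fold lower (NID1, ITGA11, ITGA4, COL24A1 and COL4A1), where 4.69% were. The median log2 ratio was 0.05 over the 36 members and 0.04 over all genes. In whole libraries fewer cells of a type and less RNA per cell cannot be told apart, and each ratio was therefore also taken with the class levels of both libraries weighted by the class shares of CTRL.

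AGRN had 386 CPM (375 to 397) in OTX2CRISPR and 119 CPM (114 to 125) in CTRL, a log2 ratio of 1.70 (1.62 to 1.78). RGC-like cells held 41.7% of its UMIs in OTX2CRISPR and 45.5% in CTRL, and New-like cells 38.9% and 0.909%. At the CTRL class shares the ratio was 0.48. ITGA6 behaved alike, with 36.8 CPM in OTX2CRISPR and 15.4 CPM in CTRL, a ratio of 1.26 (1.03 to 1.49), and 0.13 at the CTRL class shares. LAMB3, a chain of epithelial laminin, had 53 UMIs in OTX2CRISPR and 9 in CTRL, a ratio of 2.72 (1.69 to 3.92), spread over restricted, unnamed, RGC-like and New-like cells, and 1.64 at the CTRL class shares. ITGA8 had a ratio of 1.35 (0.77 to 1.96), which turned to -0.96 at the CTRL class shares, and COL9A3 one of 1.31 (0.64 to 2.03), which became 0.06. With 36 ITGA8 UMIs in all of CTRL and no interval, no direction is read from its weighted value.

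Of the lower genes, NID1 had 13.4 CPM (11.5 to 15.5) in OTX2CRISPR and 38.2 CPM (35.2 to 41.5) in CTRL, a ratio of -1.51 (-1.76 to -1.27), and -1.02 at the CTRL class shares. ITGA11 had 24.3 CPM in OTX2CRISPR and 52.4 CPM in CTRL, a ratio of -1.11 (-1.30 to -0.92) that turned to 0.17 at the CTRL class shares. ITGA4 had a ratio of -1.99 (-2.57 to -1.44), and -0.12 at the CTRL class shares, and COL24A1 one of -1.49, and 0.52 at the CTRL class shares. In the cone-like cells of OTX2CRISPR these weighted values rest on 28 ITGA11, 5 ITGA4 and 3 COL24A1 UMIs. They carry no interval, and no direction is read from those of ITGA11 and COL24A1. NID1 was thus the only one of these 4 genes that stayed near or past 2-fold lower. COL18A1 had 62.8 CPM in OTX2CRISPR and 120.5 CPM in CTRL, just inside the 2-fold line at -0.94 (-1.06 to -0.82), and -0.29 at the CTRL class shares. COL4A1 was at -1.13 and became -2.07, on 18 UMIs in OTX2CRISPR, of which 0 were in cone-like cells. In CTRL the cone-like cells held 77.3% of its UMIs, at 5.42 CPM. The interval of the 0 in OTX2CRISPR reaches 15.5 CPM and takes in that level, so the weighted value does not show a larger fall.

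**Figure D4:**
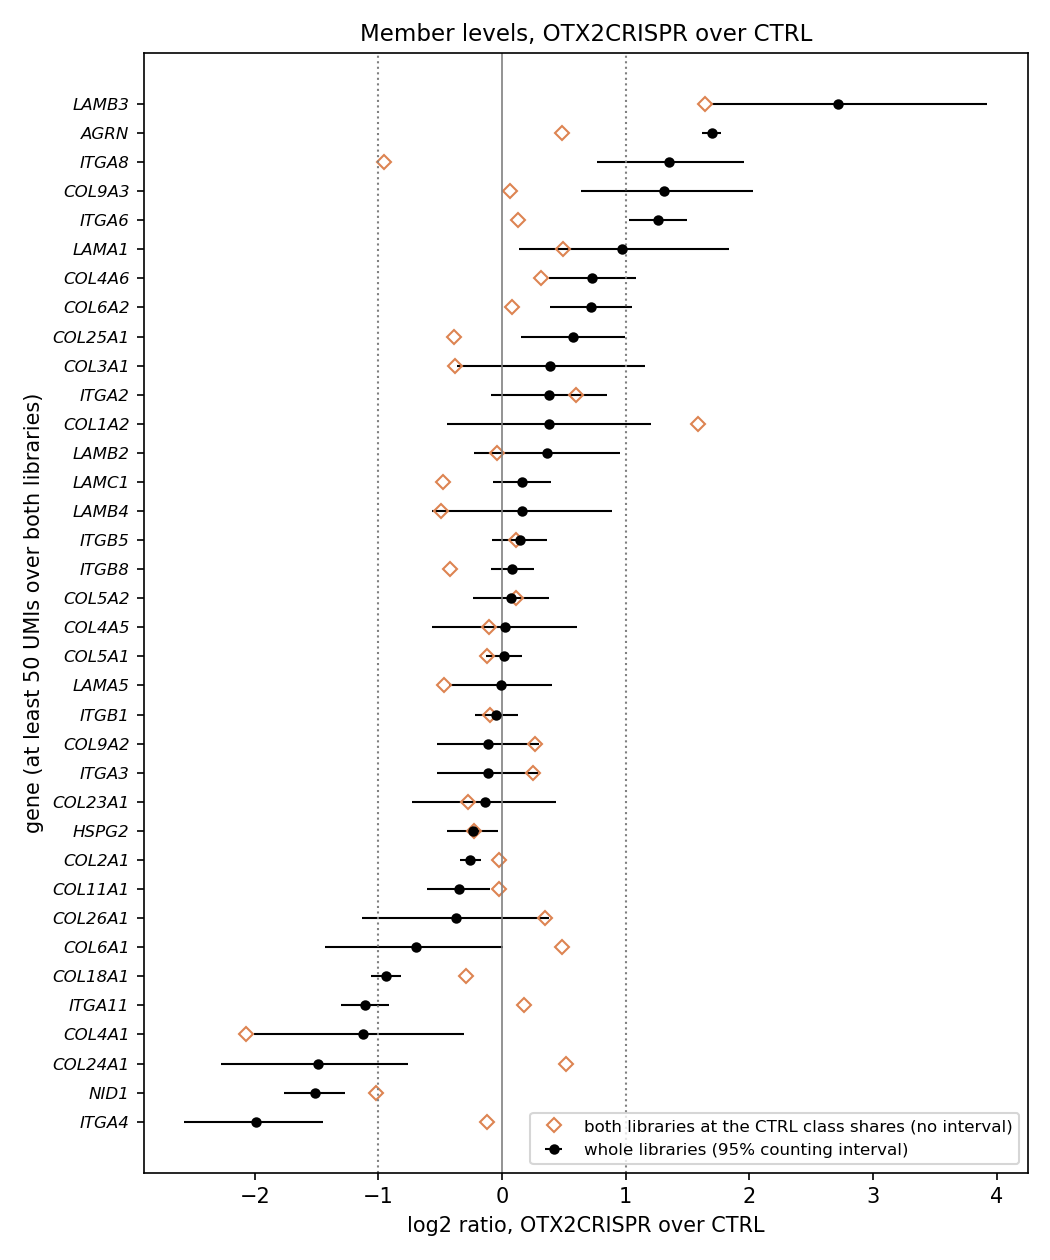
Log2 ratio of OTX2CRISPR over CTRL for the 36 matrix and integrin genes with at least 50 UMIs. Black points with exact counting intervals are whole libraries, open diamonds are both libraries at the CTRL class shares, and dotted lines mark 2-fold. AGRN lies at 1.70 and 0.48, ITGA11 at -1.11 and 0.17, and NID1 at -1.51 and -1.02.

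Of the members highest in the multipotent class of CTRL, those with at least 500 UMIs other than ITGA6 kept close to their CTRL level in the whole library. COL25A1, highest in the same class but with fewer UMIs, had a log2 ratio of 0.57 (0.15 to 0.996). COL2A1 had 163 CPM in OTX2CRISPR and 195 CPM in CTRL, a log2 ratio of -0.26 (-0.34 to -0.17). COL5A1 had 56.6 and 56.0 CPM, a ratio of 0.02 (-0.13 to 0.16), ITGB1 38.5 and 39.7 CPM, ITGB8 39.8 and 37.6 CPM, and ITGB5 25.4 and 22.9 CPM. HSPG2 had 26.3 and 31.0 CPM, LAMC1 23.3 and 20.8 CPM, and COL11A1 16.7 and 21.3 CPM. The multipotent class itself took a like share of both libraries, 6.45% of OTX2CRISPR and 6.84% of CTRL cells.

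The remaining genes with at least 50 UMIs differed less than 2-fold between the libraries. They were COL5A2, COL6A2, COL4A6, ITGA3, COL9A2, LAMA5, COL25A1, ITGA2, COL23A1, COL4A5, LAMB2, COL6A1, LAMB4, COL26A1, COL3A1, LAMA1 and COL1A2, with log2 ratios from -0.70 for COL6A1 to 0.97 for LAMA1. Members under 50 UMIs are named only. LAMA2, LAMA4, ITGB4, ITGAV, ITGB3, COL2A1L, COL4A2, COL1A1, COL27A1, COL13A1, COL8A1, COL7A1, COL17A1, COL12A1, COL20A1, COL21A1, ITGA1, NID2 and FN1 had 10 to 49 UMIs over both libraries. LAMB1, LAMC3, COL4A3, COL4A4, COL6A3, COL6A6, COL7A1L, COL8A2, COL9A1, COL14A1, COL15A1, COL16A1, COL19A1, COL22A1, COL28A1, ITGA2B, ITGA7, ITGA9 and ITGB6 had 1 to 9. COL2A1L, by its symbol a copy of COL2A1, had 21 UMIs in each library, of which 20 in OTX2CRISPR and 8 in CTRL were in RGC-like cells and none in multipotent RPC-like cells. It is singled out after its values were seen, and how reads shared with COL2A1 were assigned is not given in the sources used here. FN1, fibronectin, had 13 UMIs in OTX2CRISPR and 10 in CTRL.

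The 5 genes that only share the start of a symbol would dominate a sum over the list. ITGB1BP3 alone had 71.4% of the UMIs of all 83 genes, with 2266 CPM in OTX2CRISPR and 2875 CPM in CTRL and at least 1594 CPM in every class, and a log2 ratio of -0.34 (-0.37 to -0.32). ITGB1BP1, which binds the tail of the beta 1 chain, had 54.7 and 32.8 CPM, a ratio of 0.74 (0.57 to 0.91). ITGB3BP, also known as the centromere protein CENPR, had 8.33 and 12.05 CPM and was highest in the dividing classes, with 19.02 CPM in OTX2CRISPR and 22.2 CPM in CTRL restricted RPC-like cells. COL4A3BP, a ceramide transfer protein in mammals, had 7.72 and 8.53 CPM, and ITGB1BP2 had 1 UMI.

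Genes that work with these proteins were taken from 5 lists. The lists were chosen with earlier results of these data known, so their counts are a description and not independent evidence. Of the integrin adaptors, which link integrins to the cytoskeleton, 8 of 15 counted genes were at least 2-fold higher in multipotent than restricted RPC-like cells in OTX2CRISPR and 9 of 16 in CTRL, and none was lower, with medians of 1.08 and 1.33. Over all genes 10.1% were higher in OTX2CRISPR and 12.1% in CTRL, and 10.8% and 9.13% lower, which holds beside each of the lists. FERMT2, or kindlin 2, had 339 CPM in multipotent against 160 CPM in restricted RPC-like cells of OTX2CRISPR, and 371 against 121 CPM in CTRL. TNS1, a tensin, had 75.5 against 10.6 CPM and 68.1 against 7.02 CPM. ITGB1, ITGB5 and ITGB8 were highest in the same class. Between the libraries, where 7.27% of all genes were higher in OTX2CRISPR and 4.69% lower, only BCAR1, an integrin signalling scaffold, passed 2-fold among 19 adaptors, with 141 CPM in OTX2CRISPR and 68.4 CPM in CTRL, and it was highest in New-like cells of OTX2CRISPR, at 210 CPM, and RGC-like cells of CTRL, at 250 CPM.

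Of the other matrix genes, 4 of 6 were at least 2-fold higher in multipotent than restricted RPC-like cells in OTX2CRISPR and 6 of 12 in CTRL, with 3 lower in CTRL and none in OTX2CRISPR. VTN, vitronectin, had 128 against 29.7 CPM in OTX2CRISPR and 107 against 25.02 CPM in CTRL, and FBN1, a fibrillin of microfibrils, 92.9 against 38.8 CPM and 103 against 28.8 CPM. Between the libraries 3 of 15 were at least 2-fold higher in OTX2CRISPR, beside 7.27% of all genes, and 3 lower, beside 4.69%. EGFLAM, or pikachurin, a dystroglycan ligand at photoreceptor synapses, had 9.77 CPM in OTX2CRISPR and 174 CPM in CTRL, and was itself a naming marker of cone PR2-like cells. NPNT, the nephronectin that binds ITGA8, had 5.53 and 12.05 CPM and THBS1, a thrombospondin, 4.47 and 10.7 CPM. The higher ones with at least 200 UMIs were NCAN, a chondroitin sulfate proteoglycan of nervous tissue, with 95.2 and 28.0 CPM, and FRAS1, a basement membrane protein, with 29.6 and 7.92 CPM, of which 150 of 391 UMIs in OTX2CRISPR were in the unnamed cluster.

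The other lists had counts too small to set apart from the shares over all genes (10.1% higher and 10.8% lower in OTX2CRISPR, 12.1% and 9.13% in CTRL). Of the collagen processing genes, 3 of 9 were at least 2-fold higher and 2 lower in multipotent than restricted RPC-like cells in OTX2CRISPR, and 2 of 11 higher and 1 lower in CTRL. PCOLCE2, an enhancer of procollagen cleavage, went the other way from the fibrillar collagens, with 11.2 CPM in multipotent against 120 CPM in restricted RPC-like cells of OTX2CRISPR, and 21.8 against 122 CPM in CTRL. P4HA3, a chain of the enzyme that hydroxylates collagen prolines, had 31.6 against 9.89 CPM and 34.9 against 6.78 CPM. Of the dystroglycan complex 2 of 9 were higher and 1 lower in OTX2CRISPR, and 2 of 11 higher and 1 lower in CTRL. DTNB, a dystrobrevin, was the lower one in both, with 19.4 against 38.8 CPM and 13.1 against 42.8 CPM. Of the proteases and their inhibitors 3 of 8 were higher in OTX2CRISPR and 3 of 9 in CTRL, among them ADAM9, a membrane protease, with 59.2 against 22.1 CPM and 87.4 against 24.1 CPM. Between the libraries, 1 of 11 collagen processing genes (P4HA2) was at least 2-fold higher in OTX2CRISPR. So were 1 of 12 dystroglycan complex genes (DMD) and 1 of 10 proteases and inhibitors (MMP16), where 7.27% of all genes were. None was lower, where 4.69% were. These counts too are too small to set apart from the shares.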

How the data were processed

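Per the labels and the matrix headers, the authors processed the reads with Cell Ranger (software version 3.0.2 in the headers) against GRCg6a and deposited UMI counts per gene and barcode, without normalization. Barcodes had been called as cells. Each condition has 1 library.

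Cells passed the study's filters (200 to 2500 genes detected, and UMI shares of 16 mitochondria-related genes up to 0.4% and of 80 ribosomal genes up to 50%) and were clustered in Seurat 5.3.0 (R 4.3.3) with 33 principal components, 30 neighbours and resolution 0.6, after regressing cell cycle scores. Of 670 variable genes 607 were used, members and markers being left out. A cluster took the class with the highest mean marker log2 ratio if at least 4 markers were raised 2-fold, a minimum chosen after seeing the values. Scrublet in scanpy 1.11.5 called under 0.5% of OTX2CRISPR barcodes doublets, too few to have worked, and doublets were kept.

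Counts were summed per library or class (Python 3.11.15, numpy 2.4.6, scipy 1.17.1, pandas 2.3.3). Intervals are Poisson for levels, conditional binomial for ratios and Clopper-Pearson for shares. UMIs required were 50 for libraries and 20 for classes. Of these steps, only the ratio interval and the 2-fold call between whole libraries were tested on simulated data, drawn with counting error alone. Members with at least 500 UMIs are given in full and those with 50 or more by group. The rest are given by name, 1 of them not being reported here. Partner genes are named only if past 2-fold with at least 200 UMIs. Some that pass between the progenitor classes are left out above, among them ZYX, CD81, TNC, LOXL1 and P4HA1. The members and lists were chosen with earlier results of these data known. Of the members 80 matched RefSeq symbols of GRCg7b, whose build differs, so no coordinates are given. Alternatives were other scales, floors, cell weights, cell filters, clusterings and class shares.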

Additional observations from a re-analysis of the deposited data

Results flagged for a closer look

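A member was looked at again where its counting intervals lay on opposite sides of 0 in different classes, or in the progenitor contrast of the 2 libraries. None of these differences between classes or libraries was tested, since each condition is 1 library.

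For AGRN the log2 ratio of OTX2CRISPR over CTRL was 1.05 in restricted RPC-like cells, 1.51 in HC2-like cells and 1.28 in New-like cells, and -0.14 in RGC-like cells. For COL18A1 it was 0.9998 in HC1-like and 0.91 in HC2-like cells, the first with an interval whose lower end is 0.0051, and -1.37 in restricted RPC-like cells. For COL4A6 it was 0.92 in restricted RPC-like cells and -1.11 in RGC-like cells on 23 UMIs in OTX2CRISPR and 17 in CTRL.

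Between the progenitor classes, AGRN in multipotent over restricted RPC-like cells had a log2 ratio of -0.50 in OTX2CRISPR and 0.55 in CTRL. Without cell cycle regression the OTX2CRISPR ratio became 0.21, on the same side of 0 as in CTRL, so the opposite direction depends on that step. For NID1 it was 0.64 in OTX2CRISPR and -0.79 in CTRL.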

How the results depend on the processing

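No paired analysis was possible because each condition is 1 library and the labels give no replicate numbers. Of 677 values of 86 named ratios under other settings, 615 stayed within the counting interval of the ratio as given and 59 moved beyond it. The other 3 were ratios past 2-fold as given that changed sign. Those 3, all at the CTRL class shares, were ITGA11 (0.17), COL24A1 (0.52) and ITGA8 (-0.96). These weighted values carry no interval, and no direction is read from them. Smaller ratios changed sign too and are not among the 3. COL25A1 between the libraries went from 0.57 to -0.39 at the CTRL class shares. AGRN in multipotent over restricted RPC-like cells of OTX2CRISPR went from -0.50 to 0.21 without cell cycle regression. The counts between the libraries became 13 higher and 13 lower with a floor of 1 UMI, 2 and 2 with a floor of 200, and 2 and 2 at the CTRL class shares. At a floor of 1 UMI a gene with a single UMI passes 2-fold, so those counts say little about the members. For these counts and those below, the shares over all genes at each setting are not given, and only their change with the setting is described.

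Between progenitor classes, 13 to 16 members were higher in multipotent cells under all other settings but the floor of 50 UMIs, where there were 8 in OTX2CRISPR and 10 in CTRL. The lower ones in CTRL became 0 at that floor and 2 with members and markers kept or the unnamed cluster joined. In OTX2CRISPR they became 2 at resolution 0.4, with members and markers kept and without cell cycle regression, and 3 with the unnamed cluster joined, a setting chosen after the data had been seen. Within multipotent cells 1 was higher with equal weight per cell.

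Within restricted cells the count of higher members became 0 on the median-ratio scale and without the highest doublet scores, 2 at resolution 0.4 and with 20 components, 3 with members and markers kept or the unnamed cluster joined, and 4 without cell cycle regression. The lower ones became 3 at the floor of 50 UMIs, with members and markers kept and with the unnamed cluster joined. NID1 stayed between -2.31 and -1.05 there. Leaving out cells with other-tissue markers removed 901 OTX2CRISPR and 512 CTRL cells, mostly through the lens list, whose UMIs were mainly of CRYBA4.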
